A study of Homo sapiens with 12 samples.

Results

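The nuclear genes that encode the subunits of oxidative phosphorylation were described complex by complex in Jurkat cells, a human leukaemic T cell line. Members were chosen by gene symbol: those beginning NDUFA, NDUFB, NDUFC, NDUFS or NDUFV with a number, the SDH subunits A to D, the UQCR genes, CYC1, the structural COX genes and the ATP5 genes, with symbols ending as numbered pseudogenes left out. That gave 87 of 55514 genes in the table of ZNF683 and Mock libraries and 86 of 44389 in the doxycycline table, where COX4I2 was not among the listed genes. Complex I had 37 members, complex II 4, complex III 10, complex IV 17 and complex V 19. Symbols set the complex, so NDUFA4 stands under complex I although it is known as a subunit of complex IV, and COX7A2L stands under complex IV although it is known as an assembly factor of supercomplexes.

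RNA sequencing gave TPM, a length-normalised abundance that sums to nearly the same total in each library, for 12 libraries in 2 tables. The 3 libraries labelled ZNF683 carry the genotype label of doxycycline-induced ZNF683, the gene of the transcription factor Hobit, and stand against 3 Mock libraries. In the other table, 3 libraries of a line titled for Hobit and grown with doxycycline (Dox+) stand against 3 libraries of it without the drug (Dox-). All groups share the Jurkat background and RPMI with fetal calf serum, with doxycycline at 1 ug/uL where it was used, as the labels write the dose. The labels give neither the promoter or clone behind the induced line nor whether Mock cells received doxycycline, and they do not say that replicates were grown apart. The p-values therefore reflect variation among these libraries alone, which may be technical.

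Oxidative phosphorylation passes electrons from NADH (complex I) and succinate (complex II) through ubiquinone to complex III, on by cytochrome c to complex IV, and finally to oxygen. The protons pumped along the way drive the ATP synthase, complex V. Most subunits are encoded in the nucleus and imported, while a small set of hydrophobic core subunits is encoded by mitochondrial DNA, so that complexes I, III, IV and V hold products of both genomes and complex II only nuclear ones. Core subunits carry the redox centres or catalytic sites, and many of the remaining, accessory subunits are small proteins that surround and stabilise them. In T cells the pathway supports proliferation and long-lived memory and tissue-resident states, in which Hobit is known to act.

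Promoters of this family are the textbook targets of the nuclear respiratory factors NRF1 and GABP (an ETS protein, also called NRF2) and of YY1, so the window from 250 bases before to 50 after each RefSeq gene start (GRCh38.p14) was searched on both strands. The letters were GCGCA and GCGC with any 1 base between them for NRF1, CCGGAAG for ETS proteins, and AA, any 1 base and ATGG followed directly by CGGC for YY1, with overlapping matches counted separately. Of the 87 members, 69 matched a promoter, 2 of them under another symbol (ATP5MD as ATP5MK and ATP5MPL as ATP5MJ). NRF1 letters were in 17 of the 69 (24.6%, exact 95% binomial interval 15.1 to 36.5%), against 5.78% of all 35116 promoters and 11.6% of 10338 promoters of genes tested in the ZNF683 table. ETS letters were in 20 members (29%), against 10.3% of all and 19.6% of those tested genes' promoters, and YY1 letters in 9 members (13.0%), against 1.44% and 3.33%. At least 1 of the motifs stood in 38 members and none held all 3.

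The motifs were spread unevenly over the complexes. YY1 letters were in 6 of 31 complex I promoters, 1 of 3 in complex II and 2 of 7 in complex III, and in 0 of 14 in complex IV and 0 of 14 in complex V. NRF1 letters were in 6 of 31 promoters in complex I, 2 of 3 in complex II, 4 of 7 in complex III, 1 of 14 in complex IV and 4 of 14 in complex V. ETS letters were in 4, 2, 3, 5 and 6 promoters of complexes I to V. Of the 9 YY1 matches, 7 began after the start site. The median position was 11 over all 9 YY1 matches, and -55 and -46.5 over the 26 NRF1 and 26 ETS matches. Negative positions lie before the start. With so few promoters per complex these counts are a description, and a match of letters is not a bound site.

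The promoters printed next, 5′ to 3′ on the strand of the gene, show these arrangements, with matches in capitals. SDHA (chr5:218070-218369, plus strand) holds 4 NRF1 matches at regular spacing, starting at -166, -117, -68 and -19. SDHD (chr11:112086623-112086922, plus strand) and UQCR11 (chr19:1605413-1605712, minus strand) combine NRF1 and ETS matches: NRF1 at -110 and ETS at -77 in SDHD, and ETS at -117 and -97 with NRF1 at -29 and -10 in UQCR11. UQCRC1 (chr3:48609597-48609896, minus strand) has NRF1 at -47 and YY1 at 24, and COX5B (chr2:97645812-97646111, plus strand) a pair of ETS matches at -37 and -5. NDUFA3 (chr19:54102605-54102904, plus strand) and ATP5ME (chr4:674227-674526, minus strand) are shown because their ZNF683 and Mock levels, given further on, did not overlap. NDUFA3 has NRF1 matches at -170 and -73, and ATP5ME has NRF1 at -219 and -174 and ETS at 4.
SDHA: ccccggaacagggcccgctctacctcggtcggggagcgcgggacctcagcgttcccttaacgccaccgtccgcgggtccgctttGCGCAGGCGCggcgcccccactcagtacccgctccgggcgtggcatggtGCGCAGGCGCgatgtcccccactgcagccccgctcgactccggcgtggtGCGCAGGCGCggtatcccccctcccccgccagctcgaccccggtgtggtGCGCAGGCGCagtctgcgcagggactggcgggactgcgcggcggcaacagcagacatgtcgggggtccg
SDHD: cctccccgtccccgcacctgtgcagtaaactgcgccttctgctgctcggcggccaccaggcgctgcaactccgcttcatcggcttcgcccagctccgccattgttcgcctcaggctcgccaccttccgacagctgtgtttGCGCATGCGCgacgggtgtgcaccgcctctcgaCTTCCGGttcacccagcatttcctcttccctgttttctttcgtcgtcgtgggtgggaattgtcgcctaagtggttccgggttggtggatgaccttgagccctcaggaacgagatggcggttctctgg
UQCR11: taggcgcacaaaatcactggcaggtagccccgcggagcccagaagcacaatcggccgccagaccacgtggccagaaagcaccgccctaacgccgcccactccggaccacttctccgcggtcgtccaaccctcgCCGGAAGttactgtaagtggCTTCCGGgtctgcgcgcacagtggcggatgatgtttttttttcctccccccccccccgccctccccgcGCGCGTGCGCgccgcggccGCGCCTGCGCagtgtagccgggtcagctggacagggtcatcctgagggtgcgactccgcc
UQCRC1: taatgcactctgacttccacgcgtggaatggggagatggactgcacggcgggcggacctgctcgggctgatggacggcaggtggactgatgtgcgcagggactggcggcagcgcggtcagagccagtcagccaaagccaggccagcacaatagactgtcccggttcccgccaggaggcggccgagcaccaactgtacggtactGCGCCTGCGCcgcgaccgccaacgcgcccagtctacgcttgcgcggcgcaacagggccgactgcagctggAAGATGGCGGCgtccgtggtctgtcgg
COX5B: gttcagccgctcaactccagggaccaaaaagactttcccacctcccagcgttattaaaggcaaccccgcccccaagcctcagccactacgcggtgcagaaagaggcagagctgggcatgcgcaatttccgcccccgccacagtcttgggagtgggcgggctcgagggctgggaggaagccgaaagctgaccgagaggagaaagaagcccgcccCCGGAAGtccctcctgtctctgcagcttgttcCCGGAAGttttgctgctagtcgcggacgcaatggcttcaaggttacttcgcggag
NDUFA3: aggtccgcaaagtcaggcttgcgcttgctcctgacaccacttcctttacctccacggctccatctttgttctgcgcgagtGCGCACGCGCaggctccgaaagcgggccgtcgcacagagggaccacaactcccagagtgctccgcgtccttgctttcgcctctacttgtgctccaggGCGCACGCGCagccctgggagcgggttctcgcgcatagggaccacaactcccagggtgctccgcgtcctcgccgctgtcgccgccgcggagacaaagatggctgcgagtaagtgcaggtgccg
ATP5ME: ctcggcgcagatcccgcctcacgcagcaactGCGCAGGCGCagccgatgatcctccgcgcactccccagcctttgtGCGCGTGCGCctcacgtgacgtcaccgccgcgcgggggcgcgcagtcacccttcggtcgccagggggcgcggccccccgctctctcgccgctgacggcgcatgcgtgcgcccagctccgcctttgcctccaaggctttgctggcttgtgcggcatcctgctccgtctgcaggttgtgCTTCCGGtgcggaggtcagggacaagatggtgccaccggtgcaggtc
NDUFB1, the other complex I gene whose levels did not overlap in that direction, had none of the 3 motifs in its window.

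Some facts of the libraries bear on every value that follows. ZNF683 itself had 1.17, 1.76 and 1.04 TPM in ZNF683-labelled and 0.715, 1.59 and 0.681 TPM in Mock libraries, and 0.453, 0.774 and 0.571 TPM in Dox+ against 0.115, 0.239 and 0.451 TPM in Dox- libraries. The ZNF683 and Mock values overlap, and the Dox+ values lie above the Dox- values only narrowly, with 0.453 next to 0.451 TPM. At such low levels its transcript does not check the labels, and directions are between libraries as labelled. The single RNA AL135790.1 took 50.7% of TPM in Dox- library 1 and 4.94% to 12.8% in every other library, leaving protein-coding genes with 40.7% there against 72.9% to 86.6% elsewhere. Dox- library 2 held the stress gene HSPA6 at 637 TPM, against at most 6.85 TPM in any other library. Of 12 T cell markers, 12 were above the filter of a mean of 1 TPM in each table, and summed to 6794 to 7538 TPM in ZNF683 and 6411 to 8026 TPM in Mock libraries, and to 5818 to 6251 TPM in Dox+ and 2542 to 5483 TPM in Dox- libraries.

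The subunit genes were highly expressed. Over the 79 members above the filter in both tables the mean TPM of 12 libraries had a median of 312, and levels spanned a factor of 49.1 between the highest and the lowest gene. Complex IV had the highest median, 486 TPM, followed by complex III with 424, complex V with 415, complex I with 251 and complex II with 195 TPM. Complex II was even, with its 4 genes within a factor of 1.21: 213 TPM for SDHB, the iron-sulfur subunit, 213 and 178 for the membrane anchors SDHD and SDHC, and 177 for SDHA, the flavoprotein that oxidises succinate. Complex I spanned a factor of 36.9, complex V 10.9, complex IV 9.43 and complex III 7.33.

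In complex I the accessory subunits NDUFA13, NDUFA12 and NDUFB2 led with 775, 670.0 and 560.1 TPM, and NDUFV3, a small peripheral subunit beside the NADH site, was lowest with 21.0 TPM. UQCRQ, UQCRH and UQCRC1, a small membrane subunit, the hinge protein and a core protein, led complex III with 597, 477 and 455 TPM, and the Rieske protein gene UQCRFS1 had 81.5 TPM. COX6A1, COX7A2 and COX6C led complex IV with 1029.7, 973 and 889.6 TPM. ATP5F1B, the catalytic beta subunit, led complex V with 983 TPM, before ATP5MG and ATP5MF, the membrane subunits g and f, with 907 and 761 TPM. Its lowest gene above the filter was ATP5F1E, the epsilon subunit, with 90.3 TPM. Most neighbours in these orders were not separable: 3 of 36 neighbouring pairs kept the same order in all 12 libraries in complex I, 1 of 3 in complex II, 2 of 8 in complex III, 5 of 10 in complex IV and 2 of 17 in complex V.

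**Figure D1:**
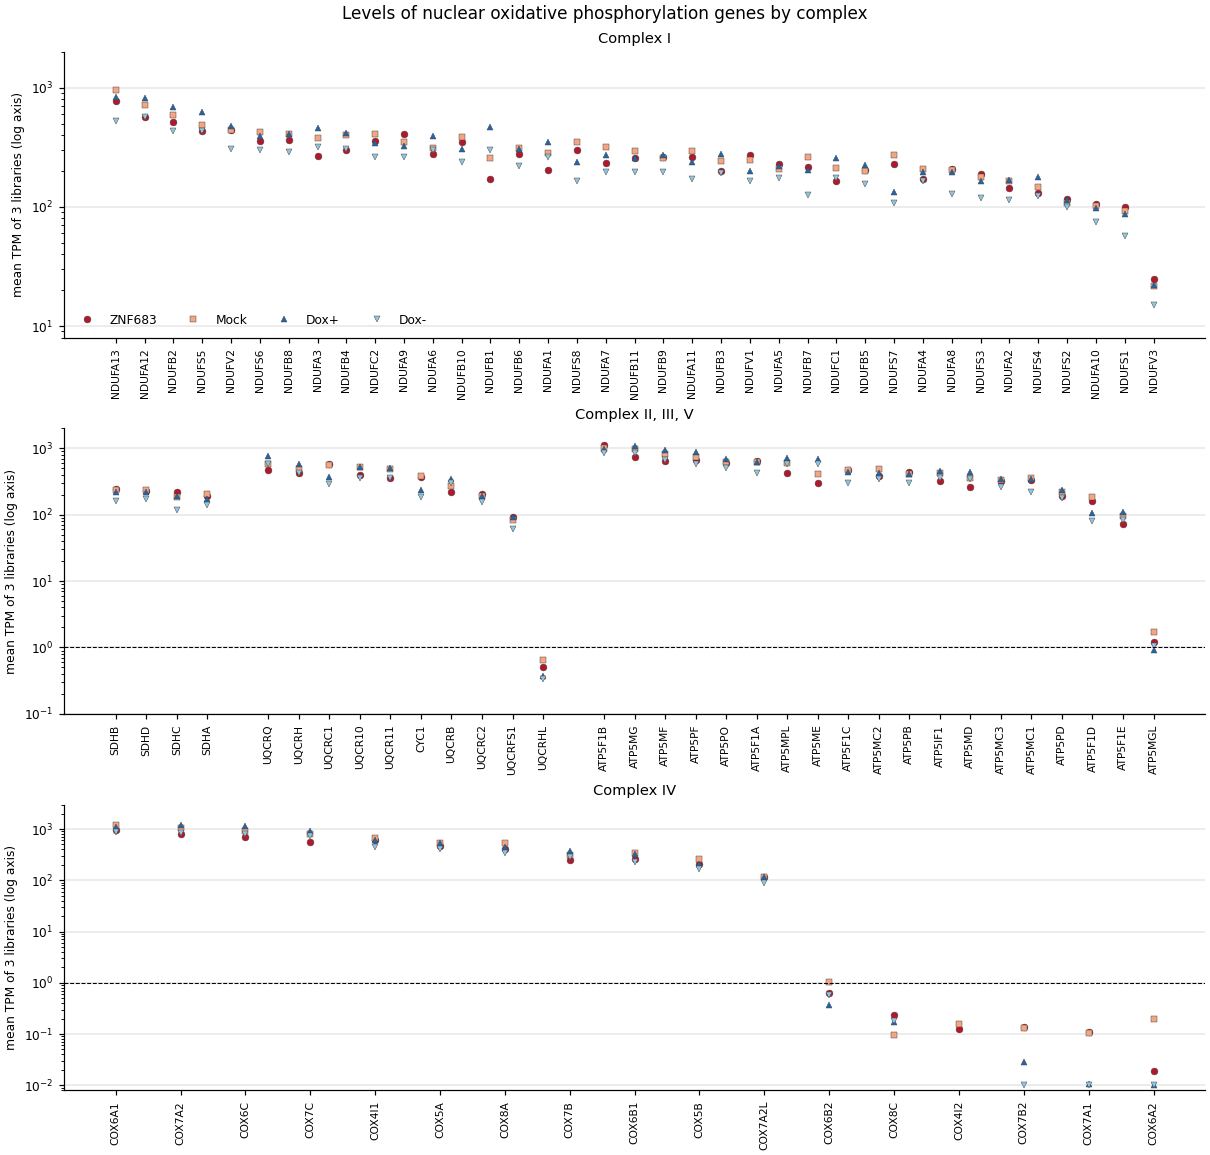
Mean TPM of each subunit gene in each group of 3 libraries, on a log axis, with genes ordered by level within complex I, complexes II, III and V, and complex IV, a dashed line at 1 TPM and values under 0.01 TPM drawn at 0.01. The ubiquitous subunits lie far above the line, and the tissue-restricted isoforms such as COX6A2 and COX7A1 lie below it.

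Complex IV subunits with paralogs were represented by the ubiquitous form. COX4I1 had a lowest, median and highest value of 277, 597 and 795 TPM over the 12 libraries, while COX4I2, the form known from lung and hypoxia, had at most 0.290 TPM and 0.0455% of the pair. The muscle and heart forms COX6A2 and COX7A1 held at most 0.0407% and 0.0257% of their families. The testis forms COX6B2, COX7B2 and COX8C held at most 0.398%, 0.0961% and 0.0757%. UQCRHL, a copy of UQCRH, and ATP5MGL, a copy of ATP5MG, had at most 0.194% and 0.215% of the sum with the parent gene. These 8 genes, apart from ATP5MGL in the ZNF683 table, were below the filter, which left 80 members tested there and 79 in the doxycycline table. Among those below it in the ZNF683 table, COX6B2 had 0.648, 0.596 and 0.685 TPM in the ZNF683-labelled libraries and 1.15, 1.11 and 0.820 TPM in the Mock libraries.

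The c ring that turns as protons pass through ATP synthase is encoded by 3 genes for 1 identical mature protein. Of their summed TPM, ATP5MC2 made up 36.8 ± 1.35% in the libraries labelled ZNF683 and 41.0 ± 3.53% in Mock libraries, and 38.4 ± 2.79% in Dox+ and 42.1 ± 7.28% in Dox- libraries (mean ± SD, n = 3). ATP5MC1 made up 32.1 ± 1.89% in ZNF683 and 30.6 ± 2.97% in Mock libraries, and 30.6 ± 4.04% in Dox+ and 25.2 ± 7.79% in Dox- libraries. ATP5MC3 made up 31.1 ± 2.10% in ZNF683 and 28.4 ± 0.988% in Mock libraries, and 31 ± 1.39% in Dox+ and 32.7 ± 1.42% in Dox- libraries. None of the 6 share differences was beyond the spread of the libraries (two-sided exact permutation p from 0.2 to 0.7, adjusted p at least 0.48 over 6), and with 3 libraries against 3 that test cannot go below 0.1.

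Between the libraries labelled ZNF683 and Mock, most subunit genes had a lower mean, and no member passed the test. In bulk RNA, fewer cells that express a gene and less RNA per cell cannot be told apart. Of 80 tested members, 59 had a negative and 21 a positive log2 change, from -0.62 to 0.22, with a median of -0.21, against 0.03 over all 16588 genes tested, of which 54.9% were positive. Limma called 0 members (adjusted p from 0.288 to 0.998), where it called 0.0301% of all genes. At an unadjusted p under 0.05, 7 members (8.75%) were lower, against 6.42% of all genes, and 0 were higher. Groups did not overlap for 3 members in the lower direction (3.75%, against 8.51% of all genes) and for 3 in the higher (3.75%, against 8.71%). The share of members with separated groups was thus below that of all genes in both directions, while the median was lower. Scaling by median of ratios gave 64 negative and 16 positive members and a median of -0.24.

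**Figure D2:**
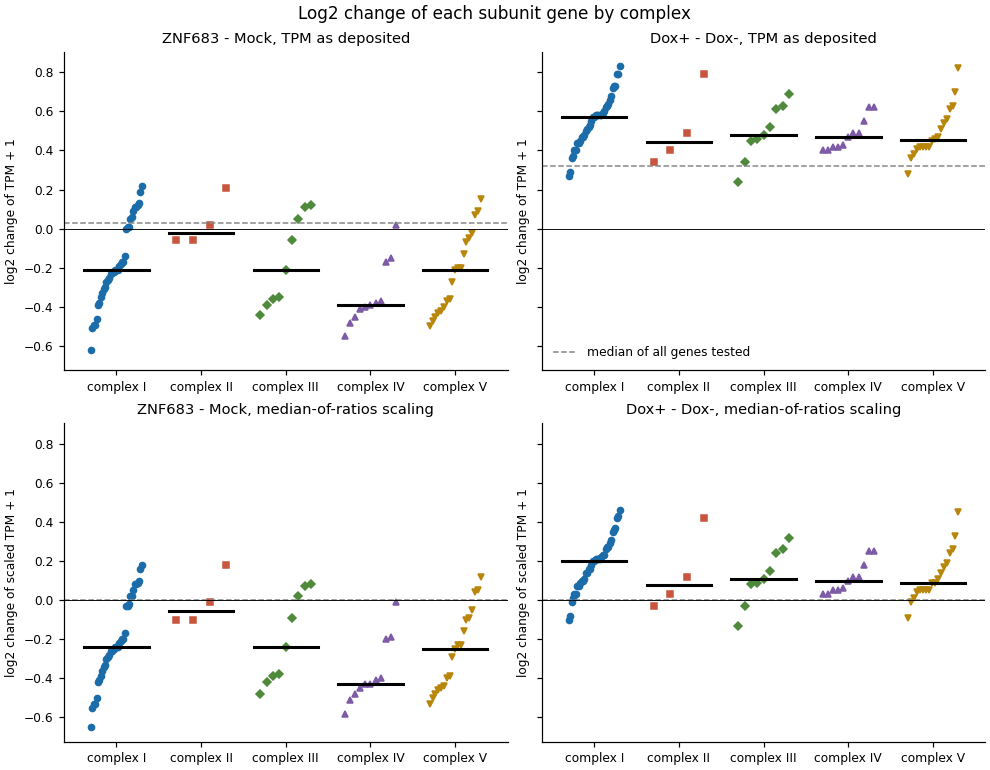
Log2 change of each tested subunit gene by complex, for ZNF683 minus Mock and Dox+ minus Dox-, on TPM as deposited (top) and after median-of-ratios scaling (bottom), with black bars at the complex medians and a dashed line at the median of all genes. The ZNF683 medians lie between -0.39 for complex IV and -0.02 for complex II as deposited, and the Dox+ medians between 0.45 and 0.57.

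Complex I had a median log2 change of -0.21, with 25 of 37 genes negative. Its 7 core subunits, which carry the flavin and iron-sulfur clusters, had a median of 0.09 with 5 positive, and its 30 accessory subunits a median of -0.21 with 23 negative. NDUFB1, a small membrane subunit (chromosome 14, 92116122 to 92121917 on GRCh38), had 184, 129.9 and 198 TPM in the ZNF683-labelled libraries and 241, 241 and 297 TPM in the Mock libraries. All 3 ZNF683 values lie below all 3 Mock values (log2 change -0.62 ± 0.17, limma adjusted p = 0.288), and NDUFB1 had the most negative change of the family. NDUFA3, another small membrane subunit (chromosome 19, 54102728 to 54109257), had 282, 221 and 307 TPM in the ZNF683-labelled libraries and 386, 319 and 435 TPM in the Mock libraries. These groups did not overlap either (-0.49 ± 0.16, adjusted p = 0.331).

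Other genes of complex I overlapped between the groups or leaned the other way. NDUFA1, also a single-pass membrane subunit, had 197, 153 and 263 TPM in the ZNF683-labelled libraries and 317, 251 and 279.7 TPM in the Mock libraries. ZNF683 library 3 lay above the lowest Mock library (log2 change -0.49 ± 0.19, adjusted p = 0.365). NDUFA13 ranged widely, with 621, 613 and 1079 TPM in ZNF683 and 1165, 864 and 849.7 TPM in Mock libraries, ZNF683 library 3 near the highest Mock one. In the core, NDUFV1, which binds FMN and takes the electrons of NADH, had 271, 295 and 247 TPM in the ZNF683-labelled libraries and 235, 252 and 258 TPM in the Mock libraries (0.12), and NDUFS1, which holds iron-sulfur clusters, had a log2 change of 0.11 (adjusted p = 0.649 in limma). NDUFA9, at the joint of the matrix and membrane arms, had the most positive change, 0.22 ± 0.11 (adjusted p = 0.427), with 409, 441 and 367 TPM in ZNF683 and 337, 339 and 369.7 TPM in Mock libraries. For NDUFV3 the groups did not overlap, at 25.4, 24.5 and 25.1 TPM in ZNF683 and 21.7, 20.05 and 23.7 TPM in Mock libraries (log2 change 0.19, adjusted p = 0.435).

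Complex II, the only complex without a mitochondrially encoded subunit, had a median of -0.02. SDHC, a membrane anchor, had 212, 233 and 202 TPM in the ZNF683-labelled libraries and 190.2, 183 and 186 TPM in the Mock libraries. The lowest of the ZNF683 libraries lay above the highest Mock library (log2 change 0.21 ± 0.10, adjusted p = 0.409 in limma). SDHA, SDHB and SDHD, with log2 changes of -0.06, 0.02 and -0.06, overlapped between the groups (adjusted p from 0.788 to 0.937).

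Complex III had a median of -0.21, with 6 of 9 genes negative. The 4 genes CYC1, UQCRFS1, UQCRC1 and UQCRC2 had a median of 0.08, with 3 positive, and the 5 small subunits a median of -0.36, with 5 negative. UQCR11, a small subunit, had 326, 277 and 476 TPM in the ZNF683-labelled libraries and 529.9, 412 and 496 TPM in the Mock libraries. Libraries 1 and 2 lie below the Mock libraries and library 3 within them (-0.44 ± 0.20, adjusted p = 0.396). UQCRH had 368, 346 and 557 TPM in ZNF683 and 549, 436 and 460.3 TPM in Mock libraries (-0.21), with the same 2 libraries lowest. UQCRC2, a core protein, had 218, 207 and 191 TPM in ZNF683 and 188, 191 and 189 TPM in Mock libraries, with no overlap, though 191.1 and 190.9 TPM were neighbours (0.12, adjusted p = 0.582). CYC1 and UQCRFS1, the cytochrome c1 and Rieske genes, had log2 changes of -0.06 and 0.11.

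Complex IV had the lowest median of the complexes, -0.39, with 10 of 11 genes negative. COX7C, a small membrane subunit, had the most negative change and 528, 388 and 776 TPM in the ZNF683-labelled libraries and 881, 713 and 788 TPM in the Mock libraries. ZNF683 library 3 lay among the Mock libraries, far above the other ZNF683 libraries (-0.55 ± 0.23, adjusted p = 0.38). COX7A2 showed the same split, with 659, 579 and 1129.7 TPM in ZNF683 and 1269.8, 963 and 949.9 TPM in Mock libraries (-0.48 ± 0.25, adjusted p = 0.431). COX8A, COX6A1, COX5B, COX6C, COX6B1 and COX7B had changes between -0.45 and -0.37 with overlapping groups. COX4I1 and COX5A, among the larger nuclear subunits, had log2 changes of -0.15 and -0.17. COX7A2L, with 111, 122 and 115 TPM in ZNF683 and 119.9, 120.4 and 102 TPM in Mock libraries, hardly varied (0.02). It made up 14.4, 17.3 and 9.23% of the COX7A family in the libraries labelled ZNF683 and 8.63, 11.1 and 9.67% in the Mock libraries, high where COX7A2 was low.

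Complex V had a median of -0.21 with 16 of 19 genes negative. The 5 genes of the F1 head had a median of -0.02, the 4 of the peripheral stalk and the 3 of the c ring each -0.13, and the 6 membrane accessory subunits -0.44, all 6 negative. ATP5ME, the e subunit (chromosome 4, 672436 to 674338), had 339.8, 255 and 301 TPM in the ZNF683-labelled libraries and 363, 341 and 539 TPM in the Mock libraries. The highest ZNF683 library, at 339.8 TPM, stood next to the lowest Mock library, at 341 TPM, so the groups just failed to overlap (-0.45 ± 0.19, adjusted p = 0.377). ATP5MPL had the most negative change, -0.50 ± 0.19 (adjusted p = 0.364), with 411, 321 and 549 TPM in ZNF683 and 656, 524 and 596 TPM in Mock libraries. ATP5F1B had the most positive, 0.15 ± 0.12 (adjusted p = 0.551), with 1167, 1165 and 994 TPM in the ZNF683-labelled libraries and 951, 1027 and 1007 TPM in the Mock libraries. ATP5F1A, the alpha subunit, had a log2 change of 0.07, and ATP5IF1, which stops the synthase from running in reverse, -0.42 ± 0.20 (adjusted p = 0.407).

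**Figure D3:**
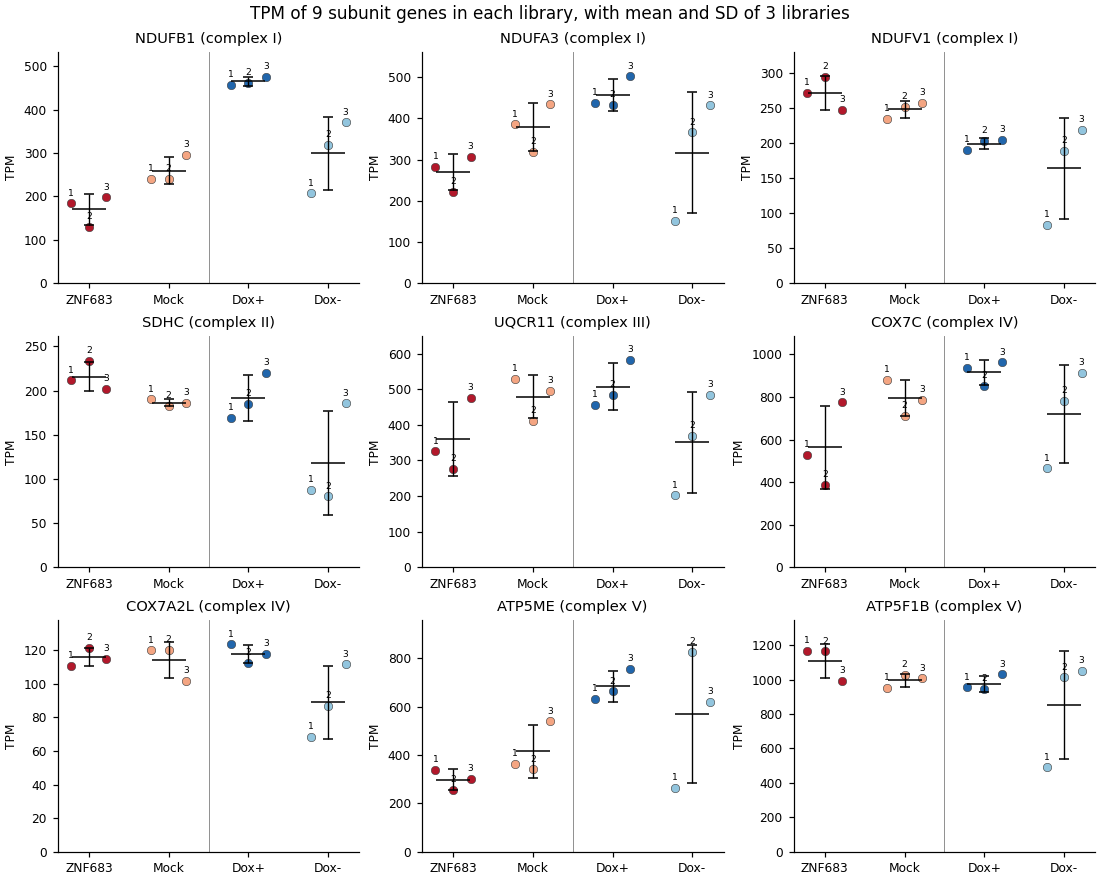
TPM of 9 subunit genes in each library, as points by group with mean and SD of 3 libraries, from ZNF683 and Mock on the left of each panel to Dox+ and Dox- on the right. NDUFB1, NDUFA3 and ATP5ME have all ZNF683 points below the Mock points, COX7C and UQCR11 have 1 ZNF683 point among the Mock points, and Dox- library 1 lies below all Dox+ points in every panel.

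The lower levels came from 2 of the 3 libraries. Relative to the mean of the Mock libraries, the median log2 ratio of the members was -0.40, -0.44 and 0.10 in ZNF683 libraries 1, 2 and 3, and 0.17, -0.09 and -0.03 in Mock libraries 1, 2 and 3. Subunit genes took 2.48, 2.41 and 3.38% of all TPM in the libraries labelled ZNF683 and 3.54, 2.97 and 3.06% in the Mock libraries, so the groups overlapped. ZNF683 library 2 was the lowest of the 6 for 41 of 80 members (51.2%, against 12.2% of all genes), and Mock library 1 the highest for 35 (43.8%, against 7.74%). ZNF683 library 3 was the highest of its own group for 57 members (71.2%, against 30.6%). Without it, the members' median was -0.41, 55 members (68.8%, against 16.8% of all genes) were lower and 11 (13.8%, against 25.2%) higher with no overlap, and limma called 0 of them. The median was -0.12 without ZNF683 library 1, -0.11 without ZNF683 library 2 and -0.10 without Mock library 1. Without Mock library 2, 11 members (13.8%, against 9.69% of all genes) were lower with no overlap, and without ZNF683 library 2, 6 were (7.50%, against 11.3%). What sets ZNF683 library 3 apart was not tested.

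**Figure D4:**
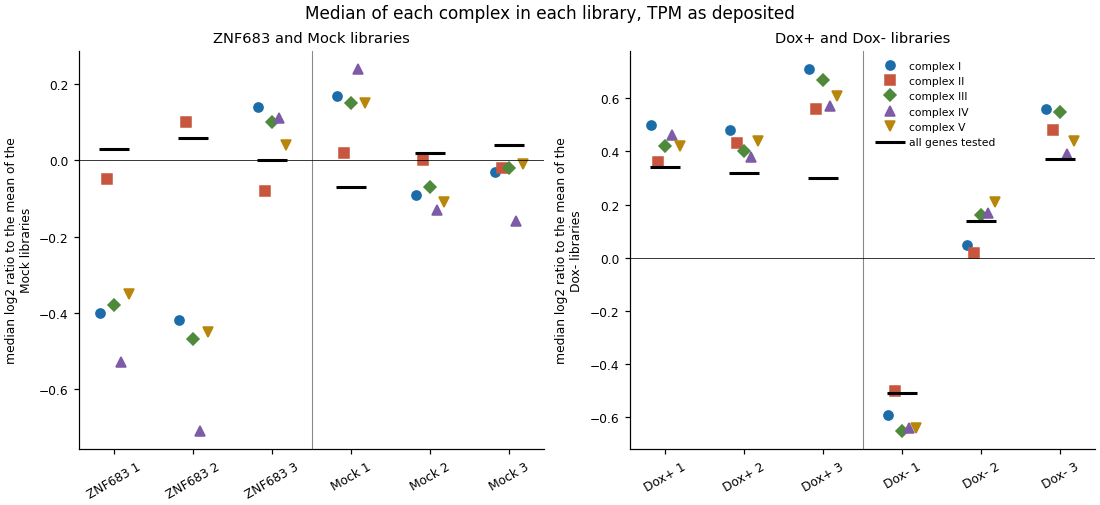
Median log2 ratio of the genes of each complex to the mean of the Mock libraries (left) or Dox- libraries (right) in each of the 12 libraries, with a black dash for all genes tested. Complexes I, III, IV and V are low in ZNF683 libraries 1 and 2 and not in 3, complex II stays near 0, and in the doxycycline table every complex is lowest in Dox- library 1, as is the median of all genes.

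The log2 changes were ordered by the length of the coding sequence. Among the 51 members with a coding sequence under 500 nt (GENCODE 29) the median log2 change was -0.36 and 48 were negative. Among the 19 of 500 nt to under 1000 nt the median was -0.02 with 10 negative, and among the 10 of 1000 nt or more it was 0.11 with 1 negative. Across the 80 members, which share their libraries, Spearman's rho of log2 change and coding length was 0.78, where it was 0.02 over 11455 coding genes. Coding genes in general had medians of -0.05, 0.09 and 0.08 in the same classes. Of genes under 500 nt with a mean of 100 TPM or more, the 48 members had a median of -0.36 (95.8% negative) and the 382 other coding genes -0.08 (63.4% negative).

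Length and role go together in these complexes, and within complex I accessory subunits, the largest role group, both lengths occur. There the 22 genes under 500 nt had a median of -0.29 with 20 negative, and the 8 longer ones 0.01 with 3 negative. By library, members under 500 nt had medians of -0.46, -0.65 and 0.11 in the libraries labelled ZNF683 and 0.20, -0.14 and -0.04 in the Mock libraries. Members of 1000 nt or more had 0.14, 0.18 and -0.02 in the libraries labelled ZNF683 and -0.07, 0.03 and 0.02 in the Mock libraries. Libraries in which short members were low thus had long members slightly high. In the doxycycline table rho was -0.03 over 79 members and -0.25 over 10959 coding genes. The part of length and of role in the lower levels was not tested.

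**Figure D5:**
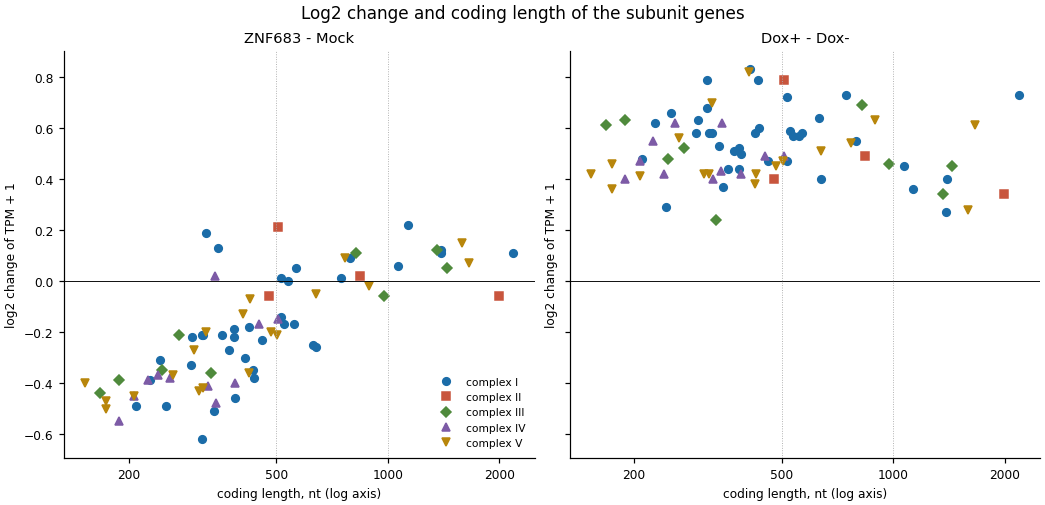
Log2 change of each tested subunit gene against its coding length in nt, on a log axis, for ZNF683 minus Mock (left) and Dox+ minus Dox- (right), with colours for the complexes. On the left, points lie higher at greater length (rho 0.78, n = 80) and on the right they do not (rho -0.03, n = 79).

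With doxycycline the subunit genes of every complex had higher TPM, as had most genes, and no member passed the test. All 79 tested members had a positive log2 change in Dox+ against Dox-, from 0.24 to 0.83 with a median of 0.50, where 79.1% of 15148 genes were positive with a median of 0.32. Limma called 0 members (adjusted p from 0.737 to 0.832), where it called 0.396% of all genes. At an unadjusted p under 0.05, 0 members were higher, against 4.69% of all genes. Groups did not overlap for 12 members in the higher direction (15.2%, against 7.91% of all genes) and for 0 in the lower (against 0.891%). After median-of-ratios scaling, which moved the median of all genes from that 0.32 to 0.00, 71 members were positive and 8 negative with a median of 0.14, where 50.2% of all genes were positive. Then 9 were higher with no overlap (11.4%, against 5.80% of all genes), and 2, NDUFB1 and NDUFA13, were higher at an unadjusted p under 0.05 (2.53%, against 1.18%).

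The medians of the complexes lay close together. They were 0.57 for complex I, 0.45 for II, 0.48 for III, 0.47 for IV and 0.46 for V, or 0.20, 0.08, 0.11, 0.10 and 0.09 after scaling. The 12 members without overlap were 7 accessory subunits of complex I (NDUFA1, NDUFA2, NDUFA3, NDUFA6, NDUFA13, NDUFB1 and NDUFB4) and 5 genes of complex IV (COX6B1, COX6C, COX7A2, COX7A2L and COX7B). NDUFB1 had 457, 462 and 477 TPM in the Dox+ libraries and 207, 319.5 and 371 TPM in the Dox- libraries, with a gap between the groups (0.68 ± 0.43, adjusted p = 0.737). NDUFA3 had 438, 432 and 502 TPM in the Dox+ libraries and 151, 366 and 432 TPM in the Dox- libraries, the highest Dox- library next to the lowest Dox+ one (0.66 ± 0.43, adjusted p = 0.737). COX7A2 had 1152, 1213 and 1293 TPM in Dox+ and 538, 890.2 and 1034 TPM in Dox- libraries (0.62 ± 0.42), and NDUFA13 791, 790.2 and 946 TPM in Dox+ and 281, 538 and 759 TPM in Dox- libraries (0.79 ± 0.43).

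Some of the larger folds came with overlapping groups. NDUFB7, which faces the intermembrane space, had the highest log2 change of complex I, 0.83 ± 0.43, with 184, 187 and 244 TPM in the Dox+ libraries and 64.3, 114 and 203 TPM in the Dox- libraries. Dox- library 3 lay among the Dox+ values. SDHC in complex II (0.79), UQCRFS1 in complex III (0.69) and ATP5MC1 in complex V (0.82) had the same form, ATP5MC1 with 287, 318 and 409 TPM in Dox+ and 125, 139.9 and 383 TPM in Dox- libraries. At the low end, ATP5F1B had 955, 945 and 1029 TPM in Dox+ and 489.8, 1014 and 1051 TPM in Dox- libraries (0.28), where 1 of 3 Dox- libraries was low and the others were not.

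The Dox- libraries differed widely among themselves. Members took 3.16, 3.15 and 3.58% of TPM in Dox+ libraries and 1.49, 2.59 and 3.21% in Dox- libraries, and, of the TPM of coding genes alone, 3.89, 3.94 and 4.24% in Dox+ and 3.66, 3.56 and 3.84% in Dox- libraries. Dox- library 1, where AL135790.1 was high, was the lowest of the 6 for 76 of 79 members (96.2%, against 75.2% of all genes). After scaling, member medians relative to the Dox- mean were 0.08, 0.07 and 0.29 in Dox+ and -0.00, -0.03 and 0.08 in Dox- libraries. Dox+ library 3 was the highest of the 6 for 61 members (77.2%, against 16.3%). The members' median was 0.19 without Dox- library 1 and 0.01 without Dox- libraries 1 and 2, and 19 members (23.8%, against 10.1% of all genes) were higher with no overlap without Dox+ library 2. Without Dox- library 3, limma called 16 members higher (20.3%), a share near the 18.2% of all genes called higher. In that setting 65 members (82.3%, against 49.5% of all genes) were higher with no overlap. The part of AL135790.1 and of the library with high HSPA6 in these results was not tested further.

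The difference between both effects was fitted over all 12 libraries. It was negative for 79 of 79 members, from -1.30 to -0.12, with a median of -0.73. Over 14468 genes the median was -0.28 and 19.2% were positive, so most genes shared the sign. Limma called 0 members (adjusted p at least 0.876), against 0.0138% of all genes. At an unadjusted p under 0.05, 19 members were lower (24.1%, against 3.37% of all genes): 11 in complex I, 0 in II, 2 in III, 4 in IV and 2 in V. Median-of-ratios scaling left 73 of 79 negative, where 50.4% of all genes were positive, a median of -0.40, and 8 lower at an unadjusted p under 0.05 (10.1%, against 1.49% of all genes). NDUFB1 had the most negative difference. All 79 members were positive with doxycycline, so the 58 of them that were negative for ZNF683 against Mock had opposite signs by that alone. Members higher without overlap in both comparisons numbered 0. Over all genes, 8.71% were higher without overlap for ZNF683 against Mock and 7.91% with doxycycline, and the share with both was not counted.

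Genes that work with the subunits were compared through lists, and no gene of any of them passed the test. The 13 mitochondrially encoded subunits, partners of the nuclear ones in 4 complexes, had a median log2 change of 0.26 in ZNF683 against Mock with 10 positive, opposite in sign to the nuclear subunits. MT-ND5 of complex I had 202, 188 and 196 TPM in the ZNF683-labelled libraries and 116, 132 and 185 TPM in the Mock libraries (0.46 ± 0.17, adjusted p = 0.345). Mock library 3 lay near the ZNF683 ones. With doxycycline their median was 0.65 with 13 of 13 positive, or 0.28 with 9 positive after median-of-ratios scaling. MT-ATP6 of complex V had 4005, 3673 and 2998 TPM in the Dox+ libraries and 1369, 1028 and 2744 TPM in the Dox- libraries (1.17 ± 0.42, limma adjusted p = 0.429). The summed share of TPM of the 13 subunits was 1.46, 1.72 and 1.96% in ZNF683 and 1.35, 1.47 and 1.76% in Mock libraries, and 3.97, 3.63 and 2.88% in Dox+ and 1.61, 2.05 and 3.28% in Dox- libraries.

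Assembly factors, which build the complexes and do not stay in them, had medians in ZNF683 against Mock of 0.04 for complex I (17 genes, 13 positive), -0.12 for II (4), 0.14 for III (6), -0.04 for IV (25) and 0.15 for V (5). PET100, a small chaperone of complex IV assembly, had 222, 178 and 228 TPM in the ZNF683-labelled libraries and 292, 274 and 367 TPM in the Mock libraries. These groups did not overlap (-0.57 ± 0.15, adjusted p = 0.283), nor did those of SDHAF4, which assists SDHA, with 6.17, 7.05 and 10.6 TPM in ZNF683 and 13.8, 13.2 and 12.1 TPM in Mock libraries (-0.68 ± 0.18, adjusted p = 0.283). UQCC2 of complex III had a log2 change of -0.49, and ATPAF1, which builds the F1 head, 0.90 ± 0.30 (adjusted p = 0.333), with 14.9, 35.9 and 34.0 TPM in ZNF683 and 12.4, 12.8 and 16.3 TPM in Mock libraries. With doxycycline the same lists had medians of 0.47, 0.40, 0.54, 0.47 and 0.65, or 0.11, 0.05, 0.18, 0.11 and 0.29 after median-of-ratios scaling. PET100 had 374, 388 and 410.4 TPM in the Dox+ libraries and 118, 169 and 349 TPM in the Dox- libraries (1.03 ± 0.43, adjusted p = 0.653), and TIMMDC1, an assembly factor of complex I, 1.12 (adjusted p = 0.541) with overlapping groups.

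Regulators and carriers stayed near the median of all genes in ZNF683 against Mock. The 11 tested transcription factors of respiratory genes had a median of 0.05. GABPA, the DNA-binding subunit of GABP, had 18.1, 16.8 and 19.4 TPM in the ZNF683-labelled libraries and 22.8, 23.9 and 24.0 TPM in the Mock libraries, with no overlap (-0.37 ± 0.10, adjusted p = 0.283), while its partner GABPB1 had 56.9, 56.9 and 48.6 TPM in ZNF683 and 36.5, 40.7 and 47.6 TPM in Mock libraries (0.38 ± 0.13, adjusted p = 0.335). Genes of mitochondrial DNA maintenance and expression (11) had a median of 0.05, carriers such as cytochrome c and ubiquinone synthesis genes (17) 0.01, and hypoxia-linked mitochondrial genes (9) -0.11. With doxycycline these medians were 0.25, 0.42, 0.43 and -0.14, or -0.09, 0.06, 0.06 and -0.47 after median-of-ratios scaling. BNIP3, a hypoxia-induced mitophagy receptor, had 46.1, 45.5 and 34.7 TPM in the Dox+ libraries and 68.4, 185 and 69.5 TPM in the Dox- libraries (-1.18 ± 0.43, limma adjusted p = 0.464), highest in the library with high HSPA6. The 12 T cell markers had medians of 0.10 in ZNF683 against Mock and 0.79 in Dox+ against Dox-, the latter 0.42 after scaling.

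Markers of other cell types were low. Of 6 B cell markers, 2 passed the filter in the ZNF683 table (median -0.22) and 1 in the doxycycline table (1.00), and their sum was 38.3 to 55.9 TPM in ZNF683, 41.4 to 58.8 in Mock, 26.7 to 30.8 in Dox+ and 10.8 to 25.1 in Dox- libraries, nearly all of it CD79A, with MS4A1 below 0.5 TPM in every library. The myeloid list summed to 4.21 to 4.62 TPM in ZNF683 and 5.01 to 10.1 TPM in Mock libraries, and to 2.17 to 3.87 TPM in Dox+ and 1.67 to 3.09 TPM in Dox- libraries, with only CD68 tested (-0.86 and 0.47). The epithelial and fibroblast list summed to 5.87 to 8.71 TPM in ZNF683 and 6.39 to 9.59 TPM in Mock libraries, and to 2.84 to 3.05 TPM in Dox+ and 1.68 to 20.6 TPM in Dox- libraries, with medians of -0.20 (3 tested) and -0.54 (2 tested).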

How the data were processed

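RNA of 12 Jurkat libraries (Qiagen RNeasy extraction and a NEBNext kit for single cells or low input, per the labels' protocols) was used as 2 deposited tables of TPM per gene symbol, made by the authors. Tools listed in the submitters' processing notes, with no role, are kallisto 0.46.0 and DESeq2 1.22.2, and the genome build and transcript set are not given in the sources used here. TPM keeps no read numbers, so depth is unknown and counting intervals could not be given.

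Each table was tested alone with limma 3.58.1 in R 4.3.3 on log2(TPM + 1), a scale that understates changes of low genes, with a mean-variance trend, for genes that averaged 1 TPM or more over its 6 libraries. Tests were two-sided with Benjamini-Hochberg adjustment over all genes of the table and a threshold of 0.05, and log2 changes are ± SE. For doxycycline, limma's prior degrees of freedom were infinite, so a gene's own spread did not enter its test. The difference between the effects was a contrast over all 12 libraries. Median-of-ratios scaling was the main alternative. The procedure was also run on simulated data with 200 changed genes. No error rate from that run is given here, and no result rests on it.

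Members, roles and lists were chosen with earlier results of these data known, and some alternatives were added after seeing the data. Named genes were, by complex, the highest and lowest in level and in change, a panel of isoforms and core subunits, and up to 2 genes with the smallest p of each list and comparison. NDUFA1, NDUFA3, ATP5ME, UQCC2 and others outside this rule were chosen after their values were seen, as were the printed promoters.

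Gene positions and coding lengths were from GENCODE 29 (GRCh38), matched by symbol, and promoters from RefSeq (GRCh38.p14). Many subunit genes have pseudogenes: of 87 members, 48 share at least 10% of their 31-base stretches with transcripts of other genes (median 12.1%), with 51.5% for ATP5ME, 15.8% for NDUFA3 and 10.7% for NDUFB1, and such reads, and those of antisense or overlapping genes, may be split. Protein sequences were not used here.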

Additional observations from a re-analysis of the deposited data

Results flagged for a closer look

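NDUFB1 and NDUFA3 were picked out because their levels moved in opposite directions in the comparisons, with every library labelled ZNF683 below every Mock library and every Dox+ library above every Dox- library. The difference between the effects was -1.30 ± 0.38 on the log2 scale for NDUFB1 and -1.16 ± 0.46 for NDUFA3. Both had a limma adjusted p of 0.876, so neither passed the test of the difference. After median-of-ratios scaling the differences were -0.96 and -0.82. For NDUFA3 the highest Dox- library stood next to the lowest Dox+ one. These 2 were the only members of 79 with such a pattern. Over all genes, groups did not overlap for 8.51% in the lower direction for ZNF683 against Mock, and for 7.91% in the higher with doxycycline. The share of all genes with both was not counted, so the pattern is not read as particular to the members.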

How the results depend on the processing

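No member was called in either comparison under any setting, except without Dox- replicate 3, and no called value changed sign. Genes called for ZNF683 against Mock, 5 as reported, were 3 with a pseudocount of 0.1, 0 with no filter, with a filter of 5 TPM and with the replicate block (alone or with median-of-ratios scaling), 8 with robust moderation and 19 with arrayWeights, and 0 to 49 with 1 library left out. For Dox+ against Dox-, 60 as reported, they were 0 with no filter, with median-of-ratios scaling, without AL135790.1 and with Dox- libraries 1 and 2 left out, 15 with a filter of 5 TPM, 23 with robust moderation, 2 with arrayWeights, 34 with the replicate block and 0 with the block and scaling, and 0 to 2788 with 1 library left out. For the difference, 2 as reported, they were 1 with scaling, without AL135790.1, with block and scaling and with Dox- libraries 1 and 2 out, 0 with arrayWeights, 60 with the replicate block and 1 to 2550 with 1 library out. Members called ranged from 0 to 16 for doxycycline and from 0 to 32 for the difference with 1 library out, above 0 only without Dox- replicate 3. In that setting 2788 of all genes were called for doxycycline and 2550 for the difference, so calls rose over all genes too. For doxycycline the shares of members and of all genes called higher were near each other, as given above. For the difference the members' share was the larger, with 79 members and 14468 genes tested in the main fit. It rests on leaving out that library, and its cause was not tested.

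The members' median for ZNF683 against Mock was -0.35 with arrayWeights and -0.41 to -0.10 with 1 library out, and minus the median of all genes -0.40 and -0.45 to -0.10. Members without overlap for ZNF683 numbered 3 to 11 higher and 3 to 55 lower with 1 library out, and 2 higher and 3 lower without AL135790.1. After scaling they numbered 5 higher (6.25%, against 9.44% of all genes) and 3 lower (3.75%, against 10.1%). For doxycycline they numbered 12 to 65 higher and 0 to 1 lower with 1 library out, and 16 higher without AL135790.1. After scaling 9 were higher (11.4%, against 5.80% of all genes). No share of all genes is given for the counts without AL135790.1, in either comparison, so those counts cannot be set against a background. In the settings of the 55 and the 65, groups without overlap were more common over all genes too. The share of members was larger than that of all genes in both settings, as given above. Groups of 2 against 3 libraries also separate more easily than 3 against 3, so these counts cannot be set beside those of all libraries. The members' doxycycline median was 0.19 to 0.76 with 1 library out, 0.14 with scaling and 0.19 without AL135790.1. The cause of these changes was not tested. Over all tested members of both comparisons and the alternatives, 2342 values kept their sign and their side of the threshold. A further 105 changed sign without being called, and 16 became called, all without Dox- replicate 3. With Dox- libraries 1 and 2 both out, the lone Dox- library was assumed to vary like the other groups.

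Samples with the same number share no source in the labels, and their deviations correlated by -0.21, 0.07 and -0.25 in the ZNF683 table and 0.08, 0.05 and 0.36 in the doxycycline table, so the numbers were not taken to pair them. With the looser letters CGCANGCG, NRF1 matches were in 31.9% of member promoters, against 10.0% of all. A comparison of protein sequences was not run.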
